A study of Mus with 2 samples.

Results

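The genes described here are the galectin genes Lgals1 and Lgals9, the S100 genes S100a4, S100a6, S100a10 and S100a11, and Crip1, Vim and Anxa2. They were chosen by symbol and make up 9 of the 27998 genes counted. They are often listed together as genes of cell activation and of the cytoskeleton, but they were not found to vary as a single unit in these cells, so they are called by name. Their RNA was followed across the kinds of cells in 2 single-cell libraries of sorted mouse hematopoietic stem cells (HSCs).

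The libraries came from Mx1-Cre; ID2+/+ mice (Id2+/+) and Mx1-Cre; ID2Δ/Δ mice (Id2Δ/Δ, or Id2 deleted), which lack the transcriptional regulator ID2. For each genotype, 1000 LSK FLT3- CD150+ CD48- cells (lineage-negative, Sca-1+, c-Kit+) from the tibias and fibulas of 5 mice aged 8 to 12 weeks were pooled and captured on a 10x Genomics Chromium, giving 1 library. Mx1-Cre is switched on by interferon and acts in many cell types besides HSCs, the controls carry it too, and per the study's methods deletion was induced with pIpC, an RNA mimic that itself raises interferon, before the HSCs were sorted. One clause of the labels names Id2+/+ bones as the source of the Id2-deleted cells, but its title and genotype field give the deletion, and the library was grouped by those.

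As background, galectins are lectins that bind sugars on cell-surface proteins, and those made by blood cells modulate adhesion and survival. S100 proteins are small calcium-binding proteins. S100A10 forms a complex with annexin A2, the product of Anxa2, which sits at the inner face of the plasma membrane and binds phospholipids when calcium rises, and S100A11 partners with other annexins. S100A4 binds nonmuscle myosin, S100A6 is known from growth-stimulated cells, Crip1 encodes a small LIM-domain protein, and vimentin, the product of Vim, forms the intermediate filaments of mesenchymal and many blood cells.

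In mouse assembly GRCm38.p6, the RefSeq annotation lists all 9 as protein-coding genes. Lgals1 (ENSMUSG00000068220) lies at chr15:78926725-78930465 and Lgals9 (ENSMUSG00000001123) at chr11:78962979-78984924. The 4 S100 genes share chromosome 3 and form 2 close pairs. S100a4 (ENSMUSG00000001020, chr3:90603770-90606045) and S100a6 (ENSMUSG00000001025, chr3:90612894-90614414) are 6.848 kb apart. S100a11 (ENSMUSG00000027907, chr3:93520496-93526288) and S100a10 (ENSMUSG00000041959, chr3:93555117-93564645) are 28.828 kb apart, and 2906.08 kb separate one pair from the other. Crip1 (ENSMUSG00000006360) lies at chr12:113152012-113153879, Vim (ENSMUSG00000026728) at chr2:13574311-13582826, and Anxa2 (ENSMUSG00000032231) at chr9:69453683-69491792.

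The libraries held 8612217 (Id2+/+) and 17140713 (Id2Δ/Δ) unique molecular identifiers (UMIs, each marking 1 captured RNA molecule). After neutrophil-like cells (27 and 40), erythroid-like cells (35 and 156) and haemoglobin-rich cells (9 and 13) were set aside by cluster, 262 Id2+/+ and 416 Id2Δ/Δ cells were retained, with a median of 7081 and 9663 UMIs. Called cells of the libraries shared 1 barcode. Id2 had 22 UMIs in retained Id2+/+ cells and 0 in 416 retained Id2Δ/Δ cells, a count that limits cells with an Id2 UMI to 0.721%, not cells that express it. The floxed stretch ends before the last exon, and the tags counted come from transcript ends, so this count is no direct check of the deletion. Levels are CPM, the UMIs of a gene per 1000000 UMIs of the cells summed, and ratios are Id2Δ/Δ over Id2+/+. Values in parentheses are 95% intervals. They cover counting error only, since 1 library per genotype leaves no replicate error and allows no test.

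All HSC markers on the list used to check the sort (Hlf, Procr, Mecom and 8 others) were detected in the retained cells of both libraries, with a summed level of 884 CPM in Id2+/+ and 684 CPM in Id2Δ/Δ cells. The neutrophil list summed to 1078 and 643 CPM in the same cells, with Ly6g at 0, and the monocyte or macrophage list to 62.8 and 42.3 CPM, with Adgre1 at 0. The stromal or endothelial list summed to 98.9 and 53.1 CPM, with Col3a1, Pdgfra and Cdh5 at 0. The erythroid list was the largest of these, at 3107 and 2655 CPM with every marker detected. Each of these lists was lower in Id2Δ/Δ cells. The activated HSC list was level, at 794 and 795 CPM. The platelet-biased HSC list was higher there, at 1976 and 2755 CPM, as was the megakaryocyte list, at 1228 and 1876 CPM with Gp6 and Tubb1 at 0. The T or NK cell list summed to 104 and 125 CPM, with Cd3e, Cd3d, Cd8a and Gzma at 0. The part of these cell types in the results was not tested.

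Of the 9 genes, Lgals1 differed most between the libraries. Retained Id2+/+ cells had 149 Lgals1 UMIs, or 69.8 CPM (59.1 to 82.0), and retained Id2Δ/Δ cells had 575, or 123 CPM (113 to 133). The ratio was 1.76 (1.46 to 2.12), and no single cell held more than 6.04% of the UMIs of either library. Because the high Lgals1 ratio was known when the genes were chosen, it is a description. The other galectin, Lgals9, stood at 162 CPM (145 to 180) in Id2+/+ cells and 203 CPM (191 to 217) in Id2Δ/Δ cells, a ratio of 1.26 (1.11 to 1.43).

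Crip1 and S100a6 were also higher in Id2Δ/Δ cells. Crip1 stood at 330 CPM (306 to 355) in Id2+/+ and 426 CPM (408 to 446) in Id2Δ/Δ cells, and the ratio was 1.29 (1.19 to 1.41). S100a6 stood at 83.9 CPM (72.1 to 97.1) in Id2+/+ and 111 CPM (102 to 121) in Id2Δ/Δ cells, and the ratio was 1.32 (1.11 to 1.58). For these 4 genes the intervals of the libraries did not overlap. With each cell thinned to 5800 UMIs, S100a6 had a ratio of 1.24 (0.994 to 1.56), whose interval included 1, and Crip1 one of 1.19 (1.05 to 1.34), so that neither was at least 25% higher, while Lgals1 had 2.01 (1.58 to 2.58) and Lgals9 1.29 (1.09 to 1.53).

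For the remaining S100 genes, and for Anxa2, the interval of the ratio over all retained cells included 1. S100a10 stood at 264 CPM (243 to 287) in Id2+/+ and 269 CPM (254 to 284) in Id2Δ/Δ cells, with a ratio of 1.02 (0.922 to 1.13). Its partner Anxa2 stood at 26.7 CPM (20.2 to 34.6) in Id2+/+ and 24.1 CPM (19.9 to 29.0) in Id2Δ/Δ cells, with a ratio of 0.903 (0.651 to 1.26). S100a11 had a ratio of 0.924 (0.842 to 1.01), from 317 CPM (293 to 342) and 293 CPM (278 to 309). S100a4, whose gene neighbors S100a6, stood at 22.0 CPM (16.2 to 29.3) in Id2+/+ and 20.7 CPM (16.8 to 25.3) in Id2Δ/Δ cells, with a ratio of 0.94 (0.657 to 1.36). The rarer genes leaned on few cells, with 1 cell holding 14% of the Anxa2 UMIs of Id2+/+ cells and 1 cell 12.4% of the S100a4 UMIs of Id2Δ/Δ cells. Vim was slightly lower in Id2Δ/Δ cells, at 213 CPM (200 to 226) against 241 CPM (221 to 263), a ratio of 0.883 (0.793 to 0.984). That direction turned to 1.15 (1.03 to 1.29) without platelet-biased HSC-like cells, a kind described with the clusters, and the ratio was 1.02 (0.903 to 1.16) without clusters that had Pf4 or Treml1 among their leading genes. In cells that had Xist but no Y-linked UMI it was 1.04 (0.871 to 1.253).

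At least 25% higher in Id2Δ/Δ cells were 4 of the 9 genes (Lgals1, Lgals9, S100a6 and Crip1), against 12.4% of the 10458 genes with at least 20 UMIs, and 0 of 9 were at least 20% lower, against 27.5%. Among the 5600 genes at or above the lowest level of these 9, the shares were 11% and 15.1%. Lgals1 alone of the 9 was past 1.5-fold higher, against 3.76% of all genes and 1.48% of those 5600, and 0 of 9 were past it lower, against 13.3% and 4.8%. The median log2 ratio of the 9 genes was 0.03, and that of all genes tested was -0.07. Under TMM scaling, these medians were 0.10 and -0.01. All 9 genes were chosen with earlier results of these data known, so these counts and medians are a description.

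**Figure D1:**
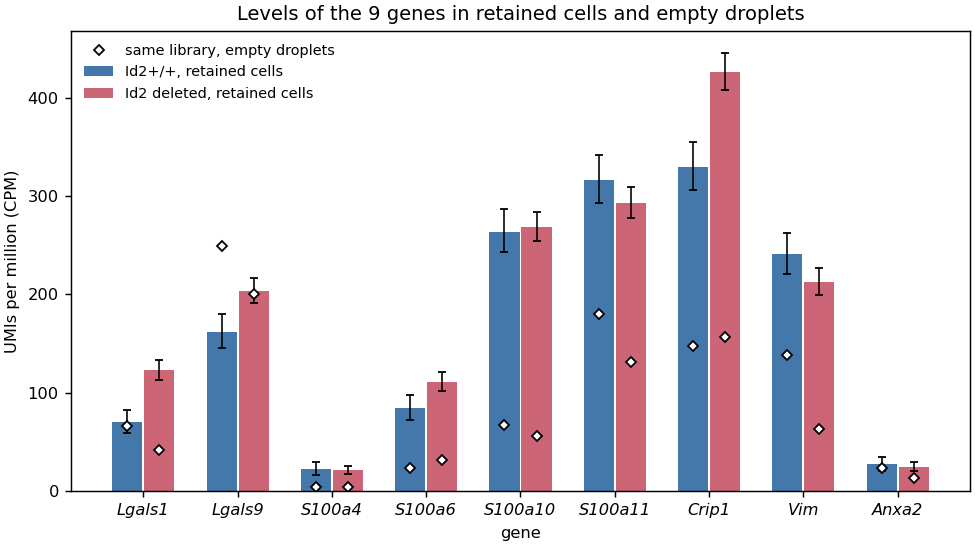
Bars show the level of each gene, in CPM, in the retained Id2+/+ (blue) and Id2-deleted (red) cells, with 95% counting intervals, and diamonds show the level in the empty droplets of the same library. Lgals1 stood at 69.8 and 123 CPM in cells, while its level in empty droplets was 65.7 and 41.9 CPM.

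Free RNA was read from empty droplets, barcodes with 1 to 100 UMIs, which took up 46.3% of all Id2+/+ UMIs and 22.4% of all Id2Δ/Δ UMIs. The free RNA share of the retained cells, from haemoglobin genes, was 10.5% and 5.41%. Lgals1 stood at 65.7 CPM in Id2+/+ and 41.9 CPM in Id2Δ/Δ empty droplets, so that its level there was close to that of the retained Id2+/+ cells. Lgals9 was higher in Id2+/+ empty droplets (249 CPM) than in the retained cells, and in the Id2Δ/Δ library it was nearly level with them (200.4 CPM). For S100a4, S100a6 and S100a10 the empty droplets were far lower than the cells, with 4.01 and 3.90 CPM for S100a4, 22.8 and 31.2 CPM for S100a6, and 67.2 and 56.2 CPM for S100a10. Crip1 (148 and 156 CPM), S100a11 (180 and 131 CPM), Vim (138 and 62.9 CPM) and Anxa2 (22.8 and 12.7 CPM) lay below the cells of their own library too, but for Anxa2 in Id2+/+ the intervals of empty droplets (18.4 to 28.0 CPM) and cells overlapped.

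To compare how many cells held a UMI, each cell was thinned to 5800 UMIs, which left out 66 shallower Id2+/+ cells and 0 Id2Δ/Δ cells. Lgals1 was then found in 31.1% (24.7 to 38.1) of Id2+/+ and 39.4% (34.7 to 44.3) of Id2Δ/Δ cells, compared with 37.0% and 53.1% before thinning. Over 20 random draws the Id2Δ/Δ share was higher by 4.10 to 11.4 percentage points. Crip1 was found in 79.6% (73.3 to 85.0) and 87.5% (83.9 to 90.5), higher by 7.37 to 12.1 points over the draws, and before thinning in 79.4% and 94.7%. S100a6 was found in 40.3% (33.4 to 47.5) and 45.7% (40.8 to 50.6), higher by 4.37 to 10.7 points, and before thinning in 42.7% and 61.3%. For each of these 3 genes the 2 intervals overlapped.

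Vim was found in 75.5% (68.9 to 81.4) of thinned Id2+/+ and 66.6% (61.8 to 71.1) of thinned Id2Δ/Δ cells, and in 77.9% and 79.8% before thinning, and the difference over the draws ran from -9.35 to 0.289 points. This direction turned with the setting, to 2.86 points when all 262 and 416 cells were thinned to 3000 UMIs and to 1.91 points for cells with at least 2 UMIs at 5800. S100a10 was found in 73.0% and 82.2% of thinned cells, but the difference in the reported draw, 9.25 points, lay outside the -0.265 to 7.93 points of the other 20. S100a11 (81.6% and 83.2%), S100a4 (12.2% and 11.1%) and Anxa2 (14.3% and 13.9%) were close between the libraries in that draw. At 3000 UMIs the difference was -6.61 points for S100a11, 2.53 for S100a4 and 2.73 for Anxa2. Before thinning these shares were 83.6% and 93.0% for S100a10, 89.7% and 96.2% for S100a11, 14.9% and 17.3% for S100a4, and 16.8% and 23.3% for Anxa2.

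Erythroid-like cells, whose median depth was 37549 and 40038.5 UMIs, gave the background for these shares at the same 5800 UMIs. Lgals9 was found in 64.7% (46.5 to 80.3) of 34 Id2+/+ and 66.0% (58.0 to 73.4) of 156 Id2Δ/Δ erythroid-like cells, no less often than in the retained cells (59.2% and 65.6%, and 67.6% and 80.3% before thinning). A share of cells with Lgals9 therefore did not set the HSCs apart. The other 8 genes were found less often in erythroid-like cells, from 0 cells for S100a4 in either library, which allows up to 8.82% and 1.92%, to 23.5% and 33.3% for Crip1. Lgals1 was found in 5.88% and 5.13% of them, and Vim in 2.94% and 3.21%.

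Across cell kinds, the 9 genes fell into different patterns. The kinds were built with all 9 genes left out of the variable genes, so none of them defined a kind, and levels are given for kinds with at least 10 cells in a library. The retained cells formed 8 clusters, and 5 of these held cells of 1 library alone. HSC-like cells were cluster 0 (172 Id2+/+ cells, led by Fos and Dusp1) and cluster 6 (7 Id2+/+ and 49 Id2Δ/Δ cells, led by Cd74 and with Procr among its leading genes). Cluster 0 had 5 HSC markers past the naming fold and 0 among its 10 leading genes, while cluster 6 had 10 and 1. Platelet-biased HSC-like cells were cluster 4 (64 Id2Δ/Δ cells, led by Pf4, Gp1bb and Sdpr) and cluster 7 (4 Id2+/+ and 27 Id2Δ/Δ cells, with Aurkb, Ube2c and other mitotic genes beside Pf4). Clusters 1, 2, 3 and 5 stayed unnamed. Cluster 3 was closest to platelet-biased HSCs, with 4 of their markers past the naming fold. It stayed unnamed because a megakaryocyte marker, and 0 markers of that class, was among its 10 leading genes. With it unnamed, the platelet-biased HSC-like cells came almost only from the Id2Δ/Δ library. Cluster 1 (145 Id2Δ/Δ cells) had Gsta4 and Cd34 among its leading genes, cluster 2 (85 Id2Δ/Δ cells) the replication genes Ung, Mcm3 and Mcm5, cluster 3 (68 Id2+/+ cells) Treml1 and Pcna, and cluster 5 (11 Id2+/+ and 46 Id2Δ/Δ cells) the mitotic genes Ccnb2, Cenpa and Cdc20.

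**Figure D2:**
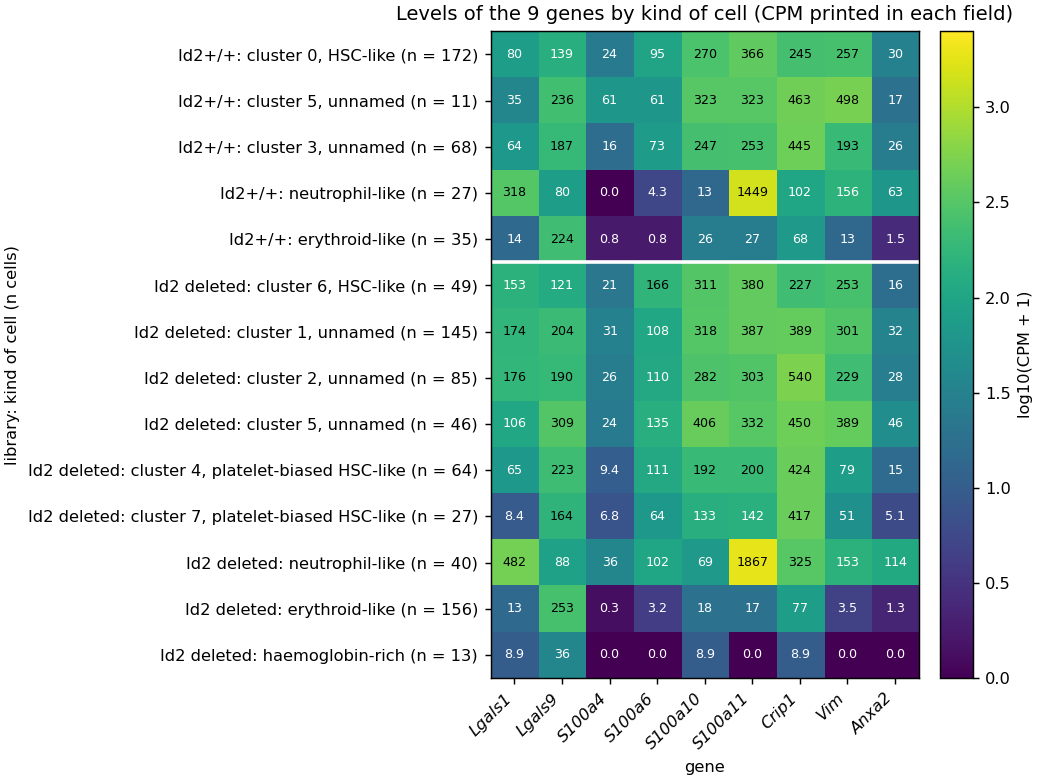
Each field gives the level of a gene (columns) in a kind of cell of 1 library (rows, Id2+/+ above the white line and Id2 deleted below it), in CPM, colored on a log10 scale after adding 1. S100a11 is brightest in neutrophil-like cells (1449 and 1867 CPM), and Lgals9 is the gene that stays bright in erythroid-like cells (224 and 253 CPM).

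Markers of neutrophil-like cells included Elane (21550 and 24639 CPM), Mpo (10772 and 11320 CPM) and S100a8 (15550 and 23011 CPM), while Ly6g stood at 2.17 and 2.75 CPM. In these cells, S100a11 and Lgals1 were far higher than in the retained cells. S100a11 stood at 1449 CPM (1341 to 1563) in Id2+/+ and 1867 CPM (1769 to 1969) in Id2Δ/Δ neutrophil-like cells, 4.57 (4.10 to 5.09) and 6.37 (5.91 to 6.88) times the retained cells, and was found in 27 of 27 and 40 of 40 cells. Lgals1 stood at 318 CPM (269 to 374) and 482 CPM (433 to 535), 4.56 (3.60 to 5.76) and 3.93 (3.43 to 4.49) times the retained cells. Anxa2 was 2.35 (1.45 to 3.74) and 4.74 (3.53 to 6.35) times higher there. Its partner S100a10 stood lower, at 13 CPM (4.77 to 28.3) in Id2+/+ and 68.8 CPM (51.1 to 90.7) in Id2Δ/Δ neutrophil-like cells, so that Anxa2 and S100a10 differed in opposite directions between these kinds. Past a fold of 1.5, 3 of 9 genes were higher in Id2+/+ neutrophil-like than in retained cells, against 10.7% of all genes, and 6 were lower, against 46.6%. In the Id2Δ/Δ library, 4 were higher, against 10% of all genes, and 2 (Lgals9 and S100a10) were lower, against 49.5%.

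The low S100 genes of these cells came from few cells. S100a4 had 0 UMIs in 27 Id2+/+ neutrophil-like cells, which allows up to 6.5 CPM, and 26 UMIs in 2 of 40 Id2Δ/Δ cells, of which 1 cell held 61.5%. S100a6 had 2 UMIs in 2 Id2+/+ cells and 74 in 6 Id2Δ/Δ cells, of which 1 cell held 50%. S100a10 had UMIs in 10 Id2Δ/Δ cells, of which 1 held 42.0%. The differences of these 3 genes between the neutrophil-like cells of the libraries therefore rest on a handful of cells. S100a4 was one of the 4 genes past 1.5-fold above the retained Id2Δ/Δ cells, and without its top cell the ratio was 0.672 (0.313 to 1.29). Crip1 was found in 19 of 27 and 32 of 40 cells, at 102 and 325 CPM, a ratio of 3.19 (2.33 to 4.46) between the libraries. One cell held 31.8% of the Crip1 UMIs of Id2Δ/Δ neutrophil-like cells, and without it the ratio was 2.2 (1.58 to 3.12). Of the genes found in most neutrophil-like cells, Lgals1 had a ratio of 1.51 (1.245 to 1.85) between the libraries, S100a11 one of 1.29 (1.17 to 1.42) and Anxa2 one of 1.82 (1.18 to 2.88), while Lgals9 and Vim had intervals that included 1.

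Markers of erythroid-like cells included Klf1 (604 and 654 CPM), Car1 (2093 and 2431 CPM) and Car2 (5743 and 6495 CPM). Alas2 (27.3 and 30.1 CPM) and Slc4a1 (50.8 and 22.5 CPM) were lower. Of the 9 genes, these cells had low levels of all but Lgals9. Past a fold of 1.5, 8 of 9 genes were lower than in the retained cells in each library, against 39.7% of all genes in Id2+/+ and 40.8% in Id2Δ/Δ cells. Vim stood at 12.9 CPM (7.51 to 20.6) in Id2+/+ and 3.49 CPM (2.18 to 5.28) in Id2Δ/Δ erythroid-like cells, against 241 and 213 CPM in the retained cells. S100a6 had 1 UMI in 35 Id2+/+ cells and stood at 3.17 CPM (1.94 to 4.89) in 156 Id2Δ/Δ cells. Of the 8, Crip1 had the highest ratio, at 68.2 CPM (54.9 to 83.9) and 76.5 CPM (69.9 to 83.7), or 0.207 (0.164 to 0.258) and 0.179 (0.162 to 0.198) times the retained cells. In Id2+/+ cells this was not separated by counting error from Lgals1, at 0.195 (0.113 to 0.320). Between the libraries, the Lgals1 ratio in erythroid-like cells was 0.987 (0.588 to 1.74). Lgals9 was higher in erythroid-like cells, at 224 CPM (199 to 251) and 253 CPM (241 to 266), or 1.38 (1.18 to 1.62) and 1.24 (1.15 to 1.35) times the retained cells. In the 13 haemoglobin-rich Id2Δ/Δ cells, S100a4, S100a6, S100a11, Vim and Anxa2 had 0 UMIs, which allows up to 26.8 CPM each.

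Among the retained Id2Δ/Δ cells, the platelet-biased HSC-like clusters had the lowest Lgals1 and Vim. In cluster 7, Lgals1 stood at 8.44 CPM (2.74 to 19.7), a ratio of 0.0606 (0.0196 to 0.142) to the other retained Id2Δ/Δ cells. Vim stood at 50.6 CPM there, a ratio of 0.214 (0.144 to 0.308). S100a10 and S100a11 had ratios of 0.462 (0.363 to 0.581) and 0.450 (0.357 to 0.562). Crip1, at 417 CPM, had a ratio of 0.974 (0.849 to 1.11), an interval that included 1. In cluster 7, 7 of 9 genes were past 1.5-fold lower, against 27% of all genes, the exceptions being Crip1 and Lgals9 (0.783, 0.628 to 0.967). Some of the 7 rest on few UMIs, with 5 for Lgals1, 4 for S100a4 (ratio 0.297, 0.0793 to 0.787) and 3 for Anxa2 (0.188, 0.0383 to 0.565). The median depth of this cluster was 22403 UMIs, the highest of the 8.

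In cluster 4, Lgals1, Vim, S100a10, S100a11, S100a4 and Anxa2 were past 1.5-fold lower, as in cluster 7, but S100a6, at 0.545 (0.381 to 0.758) in cluster 7, was not. Lgals1 stood at 64.6 CPM (ratio 0.469, 0.354 to 0.612), Vim at 79.2 CPM (0.320, 0.25 to 0.405) and S100a11 at 200.03 CPM (0.632, 0.539 to 0.736). The ratio of S100a10 was 0.664 (0.565 to 0.777). Those of S100a4, 0.397 (0.176 to 0.789), and Anxa2, 0.549 (0.290 to 0.965), came from 9 and 14 UMIs. S100a6 and Crip1 had ratios of 1.01 (0.805 to 1.247) and 0.993 (0.888 to 1.11), whose intervals included 1. These were 6 of 9 genes past 1.5-fold lower, against 20.5% of all genes, and 0 were higher, against 6.53%.

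Clusters 1 and 2 had the highest Lgals1 of the retained cells, at 174 CPM (151 to 198) and 176 CPM (152 to 203). In cluster 1, which had Cd34 among its leading genes, Lgals1, Vim, S100a4 and Anxa2 were past 1.5-fold above the other retained Id2Δ/Δ cells, against 14.6% of all genes. Their ratios were 1.66 (1.40 to 1.98) for Lgals1, 1.67 (1.46 to 1.90) for Vim, 1.78 (1.15 to 2.72) for S100a4 and 1.52 (1.0 to 2.26) for Anxa2. One cell held 31.6% of the 38 S100a4 UMIs of the cluster, and without it the S100a4 ratio was 1.23 (0.742 to 1.98). S100a11 was just under that fold, with 387 CPM and a ratio of 1.49 (1.33 to 1.67). Cluster 2, led by replication genes, had the highest Crip1, at 540 CPM (496 to 586) and a ratio of 1.37 (1.24 to 1.51).

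Cluster 5, led by mitotic genes, was the one unnamed cluster with at least 10 cells from each library, and in both it had the highest Vim of the retained clusters. Vim stood at 498 CPM (377 to 645) in its 11 Id2+/+ cells and 389 CPM (334 to 450) in its 46 Id2Δ/Δ cells, 2.2 (1.64 to 2.90) and 2.01 (1.70 to 2.36) times the other retained cells of the library. In the Id2Δ/Δ library S100a10 and Lgals9 were also highest in this cluster, at 406 and 309 CPM, with ratios of 1.60 (1.36 to 1.87) and 1.61 (1.34 to 1.92), and Anxa2 had a ratio of 2.10 (1.24 to 3.39). These 4 genes were past 1.5-fold higher in the Id2Δ/Δ cells of the cluster, against 11% of all genes. In its 11 Id2+/+ cells the ratios of S100a10, Lgals9 and Anxa2 all had intervals that included 1. S100a4, with 7 UMIs, had a ratio of 3.09 (1.17 to 6.96) in these cells, and Crip1 one of 1.44 (1.06 to 1.90). In the Id2Δ/Δ cells of the cluster these were 1.17 (0.565 to 2.21) and 1.06 (0.914 to 1.23), with intervals that included 1.

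HSC-like cells had the lowest Crip1 of the retained cells in each library, 245 CPM (217 to 275) in cluster 0 of Id2+/+ and 227 CPM (182 to 280) in cluster 6 of Id2Δ/Δ cells, while the other retained clusters ran from 389 to 540 CPM. The ratios to the other retained cells of the library were 0.570 (0.488 to 0.664) and 0.511 (0.407 to 0.635). Lgals9 was lowest there too, at 139 and 121 CPM, with ratios of 0.737 (0.593 to 0.916) and 0.576 (0.419 to 0.775). S100a11 was higher in HSC-like cells, with ratios of 1.42 (1.21 to 1.66) and 1.33 (1.11 to 1.58). In the Id2Δ/Δ library it was not particular to them, since unnamed cluster 1 had 387 CPM and a ratio of 1.49 (1.33 to 1.67). S100a6 reached 166 CPM in cluster 6, the highest of the Id2Δ/Δ clusters, with a ratio of 1.57 (1.18 to 2.04).

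Ordered by level over the kinds, most neighbors were not separated by counting error. In the Id2Δ/Δ library the intervals overlapped for 8 of 8 pairs of neighboring kinds for Lgals9, for 7 of 8 for S100a4, S100a6 and Anxa2, and for 6 of 8 for Lgals1. The order was best resolved for Vim, with 4 of 8 pairs overlapping in Id2Δ/Δ and 1 of 4 in Id2+/+ cells. For Lgals1 in the Id2Δ/Δ library, the order ran from cluster 7, haemoglobin-rich and erythroid-like cells, which overlapped, through clusters 4, 5, 6, 1 and 2 to neutrophil-like cells, with no overlap between erythroid-like cells and cluster 4 or between cluster 2 and neutrophil-like cells. The interval of the 13 haemoglobin-rich cells (0.227 to 49.8 CPM) reached that of cluster 4 (49.5 to 82.8 CPM).

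The difference between the libraries was then taken within HSC-like cells, which came from cluster 0 with 7 cells of cluster 6 in Id2+/+ mice and from cluster 6 in Id2Δ/Δ mice. Lgals1 was again higher, at 80.5 and 153 CPM, a ratio of 1.90 (1.35 to 2.66). S100a6 had a ratio of 1.71 (1.24 to 2.34), from 97.3 to 166 CPM. Past a fold of 1.5, these 2 genes of 9 were higher, against 8.52% of all genes, and Anxa2 (0.539, 0.185 to 1.30) was lower, against 17.3%. One Id2+/+ cell held 8 of the 35 Anxa2 UMIs, and without it the Anxa2 ratio was 0.696 (0.235 to 1.72), no longer past that fold. Crip1 and Lgals9, higher in Id2Δ/Δ cells when all retained cells were summed, had ratios of 0.946 (0.735 to 1.21) and 0.888 (0.626 to 1.24) within HSC-like cells. Both intervals included 1, and cells chosen by an Hlf or a Procr UMI, given with the marker splits, had ratios above 1 for both genes. These HSC-like cells lay in different clusters, so a difference between clusters and one between libraries cannot be told apart here. Within cluster 5, which held 11 and 46 cells, the ratio of Lgals1 was 3.05 (1.12 to 11.6), from 4 Id2+/+ UMIs, and that of S100a6 was 2.2 (1.01 to 5.70), from 7. The ratios of Crip1, 0.971 (0.715 to 1.34), and Lgals9, 1.31 (0.862 to 2.05), had intervals that included 1.

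Leaving out the platelet-biased HSC-like cells, a choice made after seeing the clusters, gave a Lgals1 ratio of 2.26. It kept 258 of 262 Id2+/+ but 325 of 416 Id2Δ/Δ cells. Leaving out all clusters with Pf4 or Treml1 among their leading genes, which kept 190 and 325, gave 2.12 (1.71 to 2.65) for Lgals1, 1.65 (1.47 to 1.87) for Crip1 and 1.41 (1.197 to 1.67) for Lgals9. With every cell type left in it was 1.09 (0.957 to 1.24), that of S100a6 was 1.14 (0.964 to 1.35) and that of Crip1 1.09 (1.01 to 1.18). Erythroid-like cells, in which Lgals1 was low, made up 35 of those 333 Id2+/+ cells and 156 of the 625 Id2Δ/Δ cells, and their part in this value was not tested. In Id2+/+ and Id2Δ/Δ cells with Xist and no Y-linked UMI (84 and 231 cells) the Lgals1 ratio was 1.86, and in cells with a Y-linked and no Xist UMI (93 and 90 cells) it was 1.62. Crip1 and Lgals9, with ratios of 1.05 (0.925 to 1.19) and 1.12 (0.926 to 1.36), were not at least 25% higher in the Xist cells, and had 1.38 (1.17 to 1.63) and 1.34 (1.07 to 1.70) in the Y-linked cells. S100a6 had 1.53 (1.15 to 2.07) and 1.16 (0.832 to 1.63). The differences between the subsets were not tested. The Lgals1 level was 67.3 and 125 CPM in the Xist cells and 77.0 and 125 CPM in the Y-linked cells, so the levels in each library overlapped between these subsets.

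**Figure D3:**
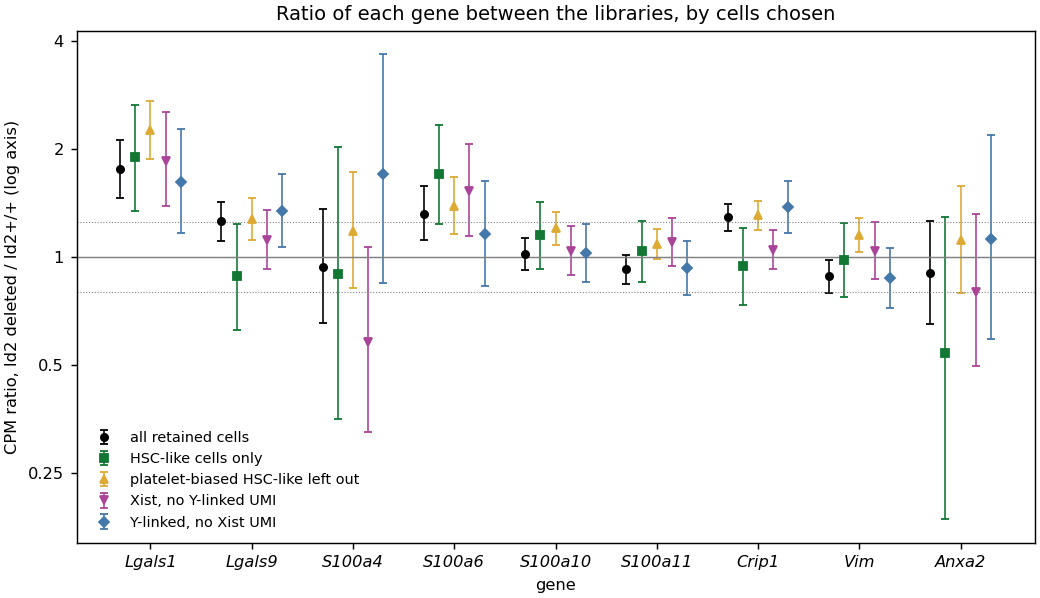
Points show the ratio of CPM, Id2 deleted over Id2+/+, for each gene on a log axis, with 95% counting intervals, for all retained cells, for HSC-like cells alone, without platelet-biased HSC-like cells, and in cells split by Xist and Y-linked UMIs. The gray line marks 1 and dotted lines mark 25% above and 20% below it. The Lgals1 points lie between 1.62 and 2.26, while those of Crip1 and Lgals9 fall below 1 in HSC-like cells. Both of these intervals in HSC-like cells include 1.

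Cells were also split by single marker genes at 5800 UMIs, without use of clusters. Hlf encodes a transcription factor of HSCs. Vim was higher in cells with an Hlf UMI than in those without, 1.38 (1.09 to 1.74) times in Id2+/+ and 1.47 (1.2505 to 1.73) times in Id2Δ/Δ cells, and Lgals9 was lower, 0.587 (0.423 to 0.805) and 0.735 (0.605 to 0.890) times. Crip1 with Hlf had a ratio of 0.631 (0.507 to 0.783) in Id2+/+ cells and of 0.989 (0.866 to 1.13) in Id2Δ/Δ cells. Vim was also higher in cells with a UMI of Cd34, a marker of progenitors and activated HSCs, by 1.66 (1.31 to 2.12) and 1.34 (1.14 to 1.58) times.

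Itga2b encodes the platelet integrin CD41. Crip1 was 1.65 (1.34 to 2.02) times higher with an Itga2b UMI in Id2+/+ cells and 0.994 (0.870 to 1.13) times in Id2Δ/Δ cells. Lgals1 had ratios of 0.865 (0.530 to 1.38) and 0.627 (0.493 to 0.793). Between the libraries, Lgals1 was higher in Id2Δ/Δ cells with Hlf, at 0.402 and 0.949 UMIs per cell (ratio 2.36, 1.62 to 3.51). It was also higher without Hlf (1.80, 1.32 to 2.50). Crip1 had a ratio of 1.56 (1.28 to 1.93) with Hlf and 0.998 (0.861 to 1.16) without it. Lgals9 had 1.47 (1.08 to 2.01) and 1.17 (0.951 to 1.44). Split by a UMI of Procr, another HSC marker, Crip1 had 1.74 (1.30 to 2.36) with it and 1.09 (0.956 to 1.246) without. Lgals9 had 1.42 (0.969 to 2.13) and 1.26 (1.04 to 1.53). With a UMI of Mki67, a gene of cycling cells, the Lgals1 ratio was 1.30 (0.763 to 2.30), and without it 2.22 (1.70 to 2.95), from 40 and 80 cells with Mki67. The difference between these last ratios was not tested.

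The 9 genes were weakly related from cell to cell. Of 36 pairs, 20 in Id2+/+ (196 cells) and 25 in Id2Δ/Δ (416 cells) had a Spearman rho above 0 at 5800 UMIs, and the median rho was 0.02 and 0.07. No Id2+/+ pair and 4 Id2Δ/Δ pairs passed 0.2. The highest rho in Id2Δ/Δ cells, between Lgals1 and Vim, was 0.24 (0.17 in Id2+/+), followed by S100a10 and Vim (0.23, and 0.14 in Id2+/+). In Id2+/+ cells the highest was 0.19, between Lgals9 and Crip1. Crip1 and Vim had a rho of -0.10 and -0.02. All cells of a library share that library, and values this low in sparse counts are given as a description.

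**Figure D4:**
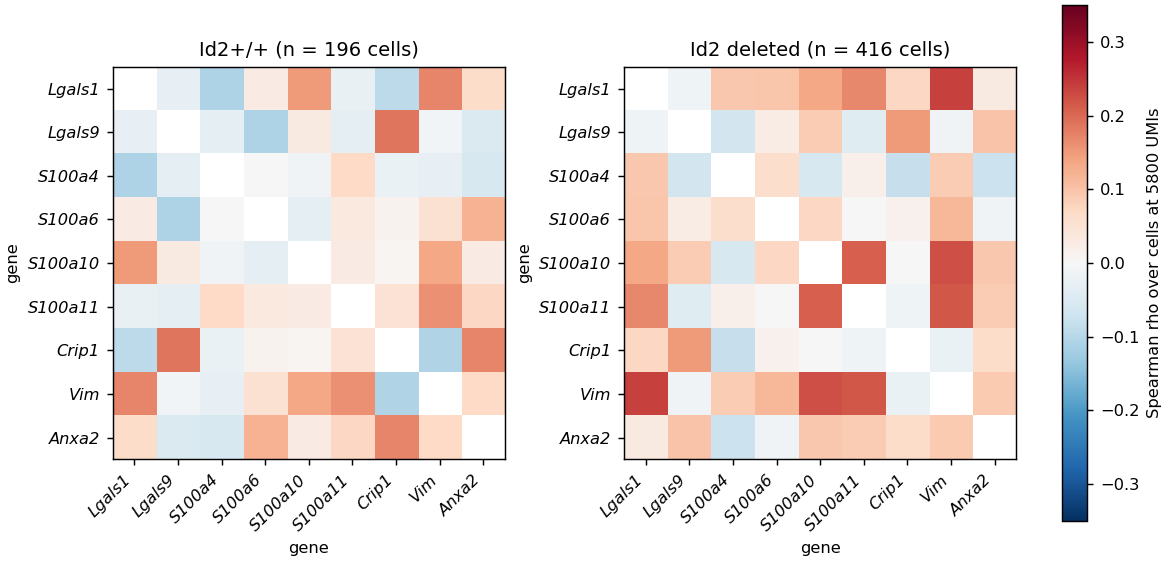
Each square gives the Spearman rho of a pair of the 9 genes over retained cells thinned to 5800 UMIs, for Id2+/+ (left, 196 cells) and Id2-deleted cells (right, 416 cells). The deepest squares, Lgals1 with Vim and S100a10 with Vim, reach 0.24 and 0.23 in Id2-deleted cells.

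The relation with cell-cycle genes split the set. With the summed S-phase list, Crip1 had a rho of 0.31 in Id2+/+ and 0.22 in Id2Δ/Δ cells, while Vim had -0.22 and -0.24 and S100a11 had -0.26 and -0.24. With the G2/M list, Crip1 had 0.32 and 0.11, S100a11 had -0.13 and -0.22, and Vim, highest in the cluster led by mitotic genes, had -0.02 and -0.03. With the platelet-biased HSC markers, Vim had a rho of -0.32 and -0.27 and Lgals1 one of -0.19 and -0.24. With the HSC markers, S100a11 had 0.18 and 0.23, Vim 0.16 and 0.17, Crip1 -0.26 and -0.06, and Lgals9 -0.15 and -0.11. The stress and immediate early list had a median of 11 UMIs per cell in Id2+/+ and 5 in Id2Δ/Δ cells. With it, Vim had 0.17 and 0.20, S100a11 0.13 and 0.15, Crip1 -0.07 and -0.04, and Lgals9 -0.10 and -0.08. The part of this list in the results was not tested. All these lists were counted in the same cells, each fixed at 5800 UMIs, which ties one list to another.

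Every one of the 196 and 416 thinned cells held at least 1 of the 9 genes, with a median of 5 in both libraries. Cells with 6 or more made up 28.1% (55 of 196) of Id2+/+ and 38.5% (160 of 416) of Id2Δ/Δ cells. The 9 genes summed to a median of 9 UMIs per cell (range 2 to 43) in Id2+/+ and 10 (range 1 to 33) in Id2Δ/Δ cells.

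**Figure D5:**
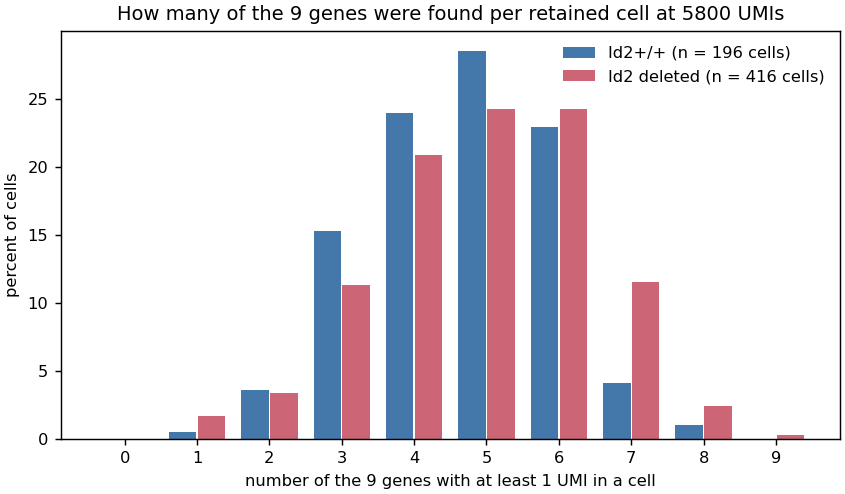
Bars show the percent of retained cells, thinned to 5800 UMIs, in which a given number of the 9 genes had at least 1 UMI, for Id2+/+ (blue, 196 cells) and Id2-deleted cells (red, 416 cells). Both libraries center on 5 genes, and 6 or more were found in 28.1% and 38.5% of cells.

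Among 3445 genes with a UMI in at least 20% of the thinned cells of each library, Plac8 was most like the sum of the 9 genes across cells, with a Spearman rho of 0.33 in both libraries. Next came Arhgdib (0.20 and 0.23), Srgn (0.23 and 0.18), Lsp1 (0.20 and 0.18) and Hhex (0.18 and 0.19). Mif was least like it (-0.24 and -0.26), followed by Bola2 (-0.21 and -0.21), Srm, Pf4 (-0.15 and -0.17) and Dnajb11. The median rho of all genes compared was 0.00 in each library.

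Related genes of the same families and of the cytoskeleton were counted in 8 lists, of which 74 genes had enough UMIs. Of these, 8 were at least 25% higher in Id2Δ/Δ cells and 11 at least 20% lower, against 12.4% and 27.5% of all genes, and their median log2 ratio was 0.02. The galectin list had 2 such genes. Lgals8, a galectin, was lower, with a ratio of 0.568 (0.423 to 0.764), opposite to Lgals1 and Lgals9, and Lgals3bp, which encodes a galectin-binding protein, had a ratio of 1.16 (0.981 to 1.39). The S100 list had 5, and none was at least 25% higher. Of its S100 genes S100a8 was lower, at 0.673 (0.577 to 0.784), while S100a1, S100a9 and S100a13 were not past the fold. S100pbp, which encodes a protein that binds an S100 protein, had a ratio of 0.664 (0.384 to 1.17), an interval that included 1. S100a8, a neutrophil gene, stood at 773 and 1088 CPM in empty droplets, far above the retained cells.

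Beside the same 12.4% higher and 27.5% lower among all genes, 1 of 8 other annexins, Anxa9, was past the fold (1.32, 0.757 to 2.39). None of 7 receptors and partners of these proteins was higher and 1 was lower. Of 11 LIM-domain and intermediate filament genes 3 were higher and 0 lower, of 27 actin cytoskeleton genes 3 were higher and 2 lower, and of 8 tubulins 1 was higher and 1 lower. The list of SRF, a factor that drives cytoskeletal genes, and its cofactors had 6 genes, of which 4 were at least 20% lower, against 27.5% of all genes, and 0 higher, with a median log2 ratio of -0.55. For Mkl1 (0.683, 0.428 to 1.10), Mkl2 (0.683, 0.396 to 1.197) and Elk1 (0.592, 0.318 to 1.12) the interval included 1. Elk3, the remaining one, stood at 53.0 CPM in Id2+/+ and 32.4 CPM in Id2Δ/Δ cells, a ratio of 0.612 (0.477 to 0.788).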

How the data were processed

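RNA of sorted HSCs was counted in 1 library per genotype. The authors deposited unnormalized UMI counts for every gene in every barcode, and no call of cells. The submitters' processing notes name Cell Ranger 2.2.0 and mm10, without their roles. The files otherwise hold gene and barcode names.

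Among the 1000 deepest barcodes, the UMI count at percentile 99 was taken, and barcodes reaching 10% of it were called cells (349 and 632). Cells needed under 10% mitochondrial UMIs. Cells were clustered in scanpy 1.11.5 with leidenalg 0.10.2 on 2000 variable genes, the 9 genes excluded, with 20 components and 15 neighbors. Neutrophil and erythroid clusters were removed at resolution 1 (at least 4 markers past a log2 fold of 1 in 25% of cells), and the rest were clustered at resolution 0.8. Clusters were named by at least 3 markers past a log2 fold of 0.5 in 10% of cells, unless another class had more markers among the 10 leading genes. Doublets were kept in the reported values, since Scrublet marked 2 of 333 and 1 of 625 cells.

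Summed counts became CPM, with 95% intervals from the exact Poisson method (levels), the exact conditional method (ratios) and Clopper-Pearson (shares), and limits for 0 used 3 counts. TMM factors came from edgeR 4.0.16. No test between genotypes was run. Positions came from the RefSeq table of GRCm38.p6 by symbol. The scripts were tested on simulated data.

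The 9 genes, the lists and the rules were chosen with earlier results of these data known. Besides the 9 genes, the text names marker genes of the kinds, the 5 genes most and least like their sum, and listed genes past 1.5-fold with at least 50 CPM. Of other list genes, Lgals8, Lgals3bp, S100a1, S100a8, S100a9, S100a13, S100pbp, Anxa9, Mkl1, Mkl2 and Elk1 were named after their values were seen. The alternatives covered the call of cells, the cells included, the scaling, the filter on genes, thinning, resolution and free RNA.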

Additional observations from a re-analysis of the deposited data

How the results depend on the processing

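No paired analysis was possible because there was 1 library for each genotype. Of 19 alternatives, 4 left every ratio of the 9 genes as it was (the 2 filters on all genes, no mitochondrial limit, and the 9 genes kept among the variable genes). Under the other 15, 109 of 135 ratios moved by less than their counting interval and 26 by more. Lgals9 and Crip1, at least 25% higher as reported, fell below 1 in HSC-like cells alone, at 0.888 and 0.946 with intervals that included 1, and stood at 1.41 and 1.65 without clusters that had Pf4 or Treml1 among their leading genes. In the split by Hlf, which is not among the 19, they had 1.47 (1.08 to 2.01) and 1.56 (1.28 to 1.93) with an Hlf UMI. Without one they had 1.17 (0.951 to 1.44) and 0.998 (0.861 to 1.16). In all, 22 ratios lay on the other side of 1, and 2 of these had an interval that excluded 1, S100a10 at 0.797 (0.724 to 0.878) with all cell types left in and Vim at 1.15 (1.03 to 1.29) without platelet-biased HSC-like cells. Among the 22, S100a4 and Anxa2 by mean per-cell CPM, Anxa2 without its top cell and S100a10 with free RNA subtracted had no interval. Lgals1 stayed above 1 in all 19, from 1.09 with all cell types left in to 2.26 without platelet-biased HSC-like cells, and S100a6 from 1.14 to 1.71. Of 36 alternative differences in the share of cells, 6 moved beyond the counting interval. At 3000 UMIs these were S100a10 (2.77 points, 9.25 as reported), S100a11 (-6.61, 1.54 as reported) and Vim (2.86, -8.92 as reported), and for at least 2 UMIs they were Lgals1 (15.3, 8.30 as reported), Crip1 (15.2, 7.91 as reported) and Vim (1.91). The number of the 9 genes at least 25% higher, 4 as reported, was 3 with cells of at least 1000 UMIs and 500 genes, where Lgals9 had 1.22, 2 with as many cells as the labels give, with cells thinned to 5800 UMIs (Lgals1 and Lgals9), in HSC-like cells alone and in Xist cells, and 1 with all cell types left in. The number at least 20% lower, 0 as reported, was 4 with all cell types left in, 2 in Xist cells, and 1 with thinned cells and in HSC-like cells alone. The percent of all genes at least 25% higher, 12.4 as reported, was 20.02 in HSC-like cells alone, 19.7 in cells with a Y-linked and no Xist UMI, and 20.6 for genes with at least 1 UMI. The cause of these changes was not tested. In the Id2Δ/Δ cluster with the highest Pf4 fold, 7 genes were past 1.5-fold lower, and 6 at resolution 0.5 and at resolution 1.2. This cluster held 27 cells as reported and 58 at each of the other resolutions, so it was not the same set of cells. The alternatives were planned, except leaving out the platelet-biased HSC-like cells, leaving out the clusters led by Pf4 or Treml1 and leaving out the top cell for S100a4, Crip1 or Anxa2 in single kinds, which were chosen after seeing the data. With at most 575 Lgals1 UMIs and at most 113 Anxa2 UMIs in a library's retained cells, small differences of the rarer genes were not detectable at this depth.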

Other observations

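S100a4 was the gene whose ratio differed most between cells with Xist and no Y-linked UMI and cells with a Y-linked and no Xist UMI. In the Xist cells it stood at 24.1 CPM (14.5 to 37.7) in Id2+/+ and 14 CPM (9.84 to 19.3) in Id2Δ/Δ cells, from 19 and 37 UMIs. In the Y-linked cells it stood at 17.1 CPM (8.84 to 29.9) and 29.2 CPM (19.6 to 42.0), from 12 and 29 UMIs. The ratios, 0.579 (0.325 to 1.07) and 1.71 (0.845 to 3.67), both had intervals that included 1, and the difference between them was not tested.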
